A study of Mus musculus with 12 samples.

Results

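A set of 6 genes of the aryl hydrocarbon receptor (AhR) pathway was followed in mouse lung: the receptor Ahr, its DNA-binding partner Arnt, the repressor Ahrr, and the target genes Cyp1a1, Cyp1b1 and Tiparp. They were found by symbol among the 23127 genes of the deposited expression table, and all 6 are in it. The genes were chosen on earlier results of these same libraries, in which a list of AhR targets had a higher level after 2 weeks of treatment than in controls. The 2-week against control values of these genes are therefore given as a description, with no test. The 5-week against 2-week comparison uses the same 2-week libraries, so its tests are not independent of that choice either. The 5-week against control comparison shares the control libraries with it.

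The samples were whole lungs of 12 C57BL6/J mice in 3 groups of 4, 1 RNA-seq library per mouse. Treated mice drank water with L-NAME, an inhibitor of nitric oxide synthases, at 0.5 g/L and ate a high fat diet with 60% lipid, for 2 weeks or for 5 weeks. The controls were taken at 0 weeks, so the time elapsed and the treatment change together and cannot be told apart. The series title places the work in pulmonary vascular remodelling in heart failure with preserved ejection fraction. The labels state neither age nor sex, and the replicate numbers 1 to 4 used here only name the mice of a group.

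AhR is a transcription factor of the basic helix-loop-helix PAS family that binds small molecules. Without a ligand it is held in the cytosol by Hsp90 chaperones and their partners, and with a ligand it enters the nucleus, pairs with ARNT and binds xenobiotic response elements in DNA. The cytochrome P450 genes Cyp1a1 and Cyp1b1, whose enzymes oxidise polycyclic hydrocarbons, and Tiparp and Ahrr, which both act back on the receptor, are textbook targets. The lung meets ligands through inhaled pollutants, diet and tryptophan breakdown products, and Cyp1a1 is known there as an inducible gene of endothelial and epithelial cells.

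The core of the xenobiotic response element is GCGTG, which reads CACGC on the other strand. It was searched on both strands in the RefSeq promoter windows of build GRCm38.p6, which run from 250 bases before to 50 bases after the annotated start. Windows were present for 5 of the 6 genes, all but Ahr, and each of the 5 held the core at least once. The 250 bases before the start are shown for the 4 target genes because the core is the sequence that AhR and ARNT bind. They are read 5′ to 3′ on the strand of the gene, with each core in capitals.
Cyp1a1: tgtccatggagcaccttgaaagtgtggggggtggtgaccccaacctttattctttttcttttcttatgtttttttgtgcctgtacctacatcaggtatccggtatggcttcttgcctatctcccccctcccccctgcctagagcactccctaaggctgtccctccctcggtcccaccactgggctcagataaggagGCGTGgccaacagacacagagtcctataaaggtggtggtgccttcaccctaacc
Cyp1b1: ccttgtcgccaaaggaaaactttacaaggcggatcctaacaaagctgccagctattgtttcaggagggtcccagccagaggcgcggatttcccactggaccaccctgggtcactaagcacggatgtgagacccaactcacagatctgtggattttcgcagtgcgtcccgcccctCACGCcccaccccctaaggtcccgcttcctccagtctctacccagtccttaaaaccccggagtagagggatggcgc
Tiparp: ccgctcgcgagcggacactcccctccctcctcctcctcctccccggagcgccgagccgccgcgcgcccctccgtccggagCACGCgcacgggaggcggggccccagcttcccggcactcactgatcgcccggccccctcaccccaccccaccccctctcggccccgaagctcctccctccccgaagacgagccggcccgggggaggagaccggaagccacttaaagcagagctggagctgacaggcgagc
Ahrr: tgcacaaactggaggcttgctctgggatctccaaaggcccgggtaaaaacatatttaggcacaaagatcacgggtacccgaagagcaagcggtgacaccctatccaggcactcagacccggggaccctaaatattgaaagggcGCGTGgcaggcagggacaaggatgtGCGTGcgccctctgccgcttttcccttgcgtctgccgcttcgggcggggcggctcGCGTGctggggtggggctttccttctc
The stretch of Cyp1a1 lies at chr9:57697363-57697612 on the plus strand, and its single core starts at -54 from the transcription start. That of Cyp1b1 lies at chr17:79715062-79715311 on the minus strand, with 1 core at -76 on the strand opposite to the gene. Tiparp lies at chr3:65528197-65528446 on the plus strand and has 1 core at -170, also on the opposite strand. Ahrr, at chr13:74292332-74292581 on the minus strand, has 3 cores, at -107, -82 and -27. The window of Arnt, which is not printed, has 1 core at -29.

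The core is short and common. It occurs in 10639 of 32851 RefSeq windows of the same length, or 32.4%, and 3.91% of windows hold 3 or more, as Ahrr does. The longer form TNGCGTG occurs in 5.07% of windows and was found at 1 place in Ahrr and in none of the other 4. GCGTG is also 1 of the forms of the core that hypoxia-inducible factors bind, so the letters do not separate the 2 families. A match describes letters only. For Cyp1a1, the best studied response elements lie farther upstream than this window.

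**Figure D1:**
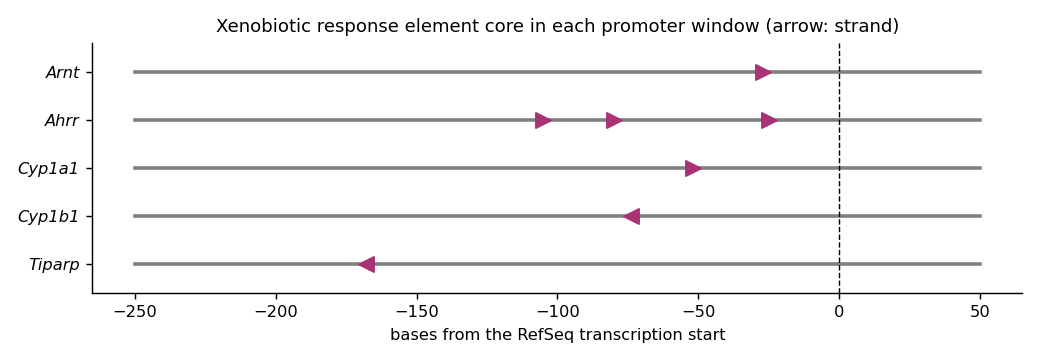
Positions of the core GCGTG in the RefSeq promoter windows of 5 genes, in bases from the transcription start (dashed line); a right arrow marks a core on the strand of the gene and a left arrow a core on the other strand. Ahrr has 3 cores and each of the other 4 genes has 1, all before the start.

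The deposited values are read counts scaled to the library total (CPM), and the depth read from their smallest steps was 26000000 to 34100000 reads per library. The 66 pairs of libraries correlated at r = 0.9524 to 0.9946 across genes, and no pair was identical. Across the whole table, limma on log2(CPM + 1) called no gene in any of the 3 comparisons at an adjusted p of 0.05, among the 15562 genes whose mean level reached 1 CPM. At an unadjusted p under 0.05 there were 1438 genes for 2 weeks against control, 1343 for 5 weeks against control and 1696 for 5 against 2 weeks. Among the 12 libraries, 3 were known from earlier results to stand apart: control replicate 2, 2-week replicate 3 and 5-week replicate 3. Adipocyte markers summed to 1872 CPM in the first of them and to 38.0 to 189.4 CPM in the other 11 libraries, and red cell markers summed to 16211 CPM in the last and to 1080 to 4490 CPM elsewhere. Lung endothelial, epithelial and immune markers were present: no listed marker was at 0 in all 12 libraries.

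The 6 genes covered a wide range of levels. Per kilobase of exon and over all 12 libraries, Ahr was the highest at 21.4 CPM per kb, followed by Tiparp at 10.5, Arnt at 9.74, Cyp1a1 at 5.57, Cyp1b1 at 2.38 and Ahrr at 0.0207 CPM per kb. Tiparp and Arnt, neighbours in this order, overlapped between libraries. Cyp1a1 has no fixed place in the order, because its level per kb was 2.33 ± 2.54 in controls, 12.9 ± 10.5 at 2 weeks and 1.45 ± 1.58 at 5 weeks (SD, n = 4 each). In bulk tissue such as this, fewer cells of a type and less RNA per cell cannot be told apart.

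**Figure D2:**
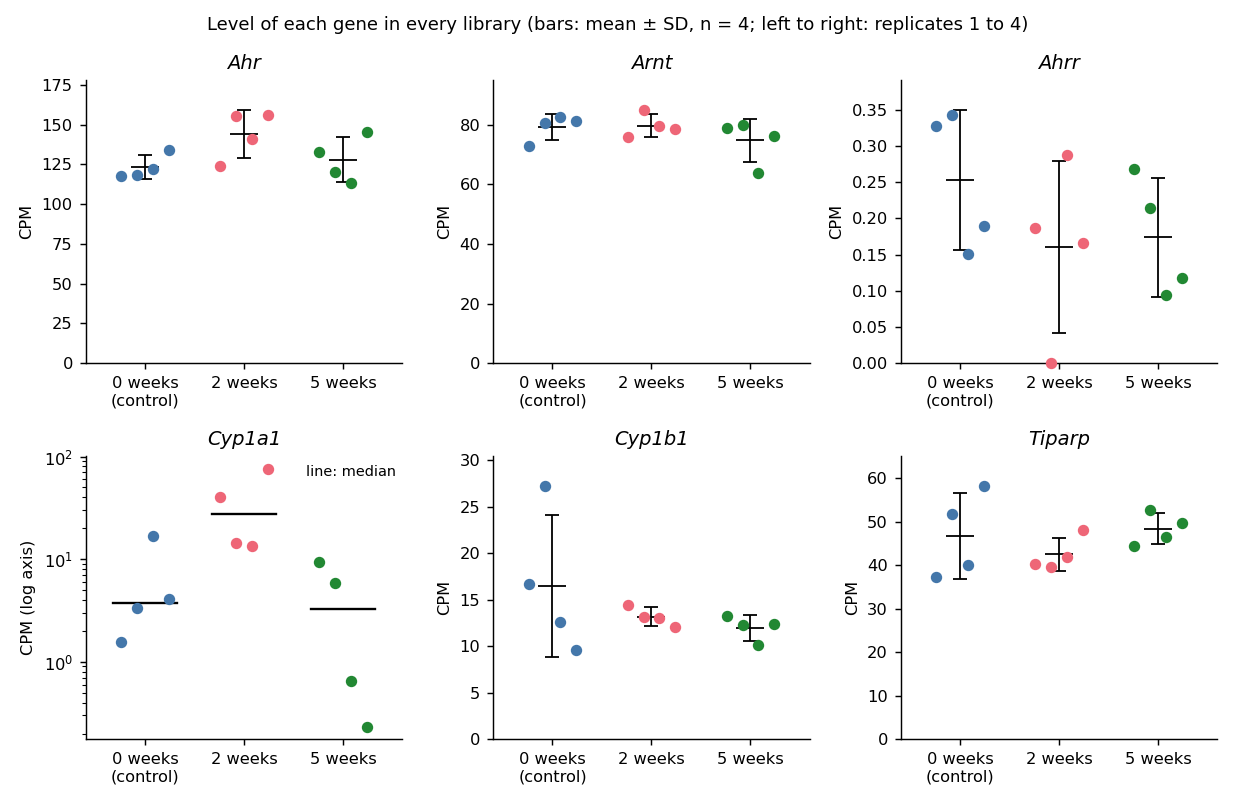
Level of each of the 6 genes in CPM (vertical axes; log axis for Cyp1a1 only), 1 point per library, for control (0 weeks), 2 weeks and 5 weeks; crosses give the mean ± SD of 4 libraries, and for Cyp1a1 the line is the median. Cyp1a1 spans 0.234 to 75.7 CPM, while Ahr stays within 113.5 to 155.9 CPM.

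The receptor itself differed little between groups. Ahr (ENSMUSG00000019256, at 12:35547973-35585037 on the minus strand in the positions of the deposited table, which names no build) was at 118, 118, 122 and 134 CPM in the controls, at 124, 155, 141 and 156 CPM at 2 weeks, and at 133, 120.0, 114 and 145 CPM at 5 weeks, in replicate order. At 2 weeks 3 of the 4 libraries lay above all controls, and the remaining library lay within them. The means were 123 ± 7.47, 144 ± 15.1 and 128 ± 14.1 CPM (SD, n = 4 each). The difference on the log2(CPM + 1) scale, which also serves for every log2 value below, was 0.22 for 2 weeks against control. For 5 weeks against control it was 0.05 with a standard error (SE) of 0.09, and 1 library at 5 weeks lay above and 1 below all controls (exact two-sided permutation p = 0.6; limma adjusted p = 0.876). For 5 against 2 weeks it was -0.17, with overlapping groups (exact permutation p = 0.2; limma adjusted p = 0.541).

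Arnt, the partner that AhR shares with the hypoxia-inducible factors, was the steadiest of the 5 genes that passed the filter on low values. It (ENSMUSG00000015522, 3:95341699-95404551, plus strand) was at 72.8, 80.5, 82.8 and 81.3 CPM in controls, at 76.1, 85.0, 79.6 and 78.8 CPM at 2 weeks and at 78.9, 79.9, 64.0 and 76.3 CPM at 5 weeks. All 3 groups overlapped, and the lowest value of the 12 was 5-week replicate 3, the library with the high red cell sum. The part of those cells in that value was not tested. The log2 difference was 0.01 for 2 weeks against control, and it was -0.01 with median-of-ratios scaling, so it has no stable sign. It was -0.09 ± 0.08 (SE) for 5 weeks against control (exact permutation p = 0.371; limma adjusted p = 0.741) and -0.10 for 5 against 2 weeks (exact permutation p = 0.4; limma adjusted p = 0.705). Without 5-week replicate 3 these were -0.02 and -0.03.

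The repressor Ahrr, which competes with AhR for ARNT, was close to the limit of detection. Ahrr (ENSMUSG00000021575, 13:74359237-74440450, minus strand) was at 0.328, 0.343, 0.151 and 0.189 CPM in controls. It was at 0.187, 0, 0.288 and 0.166 CPM at 2 weeks and at 0.269, 0.215, 0.0938 and 0.117 CPM at 5 weeks. These levels correspond to at most 10 reads per library, and the 2-week library at 0 allows up to 0.0987 CPM, the level of 3 reads. Summed over 4 libraries the reads were 29, 20 and 20, or 0.252 CPM (95% exact Poisson interval 0.169 to 0.362), 0.161 CPM (0.0986 to 0.249) and 0.167 CPM (0.102 to 0.257). The intervals, which cover counting error only, overlap, so a difference between the groups was not detectable at this depth. Ahrr was left out of the fit over all genes by the filter, and its exact permutation p was 0.257 for 5 weeks against control and 0.829 for 5 against 2 weeks. It holds the most cores of the 5 promoter windows and had the lowest level of the 6 genes.

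Cyp1a1, the enzyme gene most used as a readout of AhR activity, varied most. It (ENSMUSG00000032315, 9:57595211-57611107, plus strand) was at 1.57, 3.35, 17.0 and 4.10 CPM in controls, at 40.5, 14.4, 13.5 and 75.7 CPM at 2 weeks, and at 9.45, 5.85, 0.656 and 0.234 CPM at 5 weeks. At 2 weeks 2 libraries were above every control, and the other two lay between the highest control, replicate 3, and the rest. At 5 weeks 2 libraries lay within the control range and 2 below every control. The medians were 3.73, 27.5 and 3.25 CPM.

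For 2 weeks against control, Cyp1a1 was 7.37-fold higher by medians and 5.54-fold higher by means. The log2 difference of 2.36 was the highest of the 15562 genes tested. The genes were chosen on this comparison, so neither the size nor the rank is independent of that choice. The groups overlapped through control replicate 3 alone, and without it the difference was 2.91. Over the same genes 5.32% had groups that did not overlap in this comparison and 0% were called, and all 6 genes of the pathway had groups that overlapped.

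For 5 against 2 weeks, the Cyp1a1 groups did not overlap. All 4 libraries at 5 weeks, at most 9.45 CPM, lay below all 4 at 2 weeks, at least 13.5 CPM. The ratio of the means was 8.9 and that of the medians 8.45, and the log2 difference of -3.06 ± 0.76 (SE) was the third lowest of the 15562 genes. The exact two-sided permutation p of 0.0286 is the smallest that 4 against 4 can give, and the limma p was 0.288 after adjustment over all genes. The genes were chosen on these same 2-week libraries, so neither p, nor the rank or the lack of overlap, is independent of that choice. Cyp1a1 was the only gene of the 6 whose groups did not overlap here, beside 4.94% of all genes tested and 0% called. Without 2-week replicate 4, the library with the highest level, the log2 difference was -2.59 (limma adjusted p = 0.102).

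For 5 weeks against control, Cyp1a1 showed no difference beyond its spread. The log2 difference was -0.70 ± 0.76 (SE; exact permutation p = 0.486; limma adjusted p = 0.792), and it was 0.01 when libraries were weighted by their quality. None of the 6 genes had groups without overlap in this comparison, beside 5.01% of all genes tested and 0% called. The interval around Cyp1a1 is wide: the level differed 10.8-fold between the lowest and highest control, 5.62-fold within the 2-week group and 40.3-fold within the 5-week group.

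**Figure D3:**
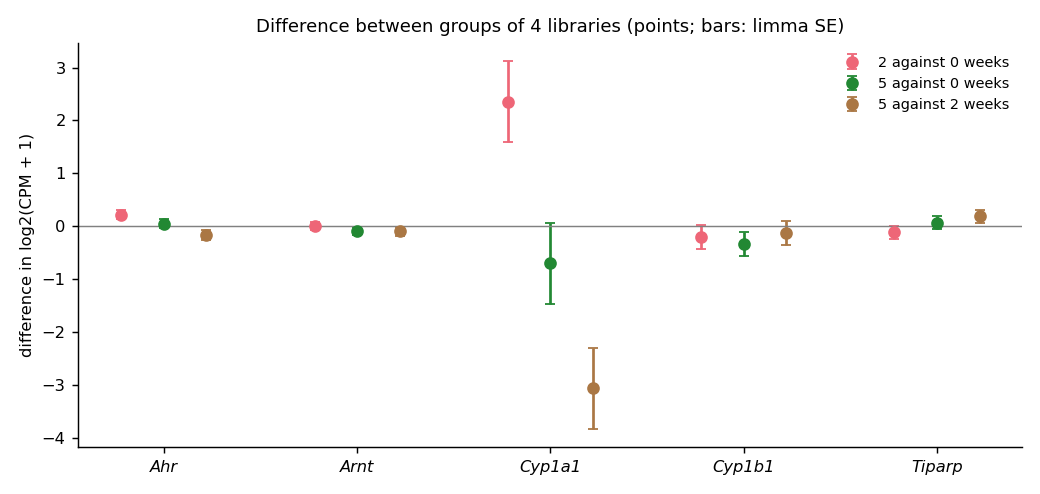
Difference in mean log2(CPM + 1) between groups of 4 libraries (vertical axis) for the 5 genes tested; points are differences and bars the limma SE, in 3 colours for the 3 comparisons. Cyp1a1 stands at 2.36, -0.70 and -3.06, and the other 4 genes lie between -0.34 and 0.22.

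Cyp1a1 also varied widely between mice of the same group. Its SD within groups was 1.298 on the log2 scale, against a median of 0.17 over the 15562 genes, and it ranked 53rd from the most variable. Among 2890 genes within 1.5-fold of its mean level the median was 0.163 and Cyp1a1 ranked 13th. Cyp1b1 came next of the 6 with an SD of 0.364, then Tiparp with 0.195, Ahr with 0.136 and Arnt with 0.104. For Cyp1b1 and Tiparp the controls varied most, with SDs of 0.60 and 0.30 against 0.10 to 0.16 in the treated groups.

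**Figure D4:**
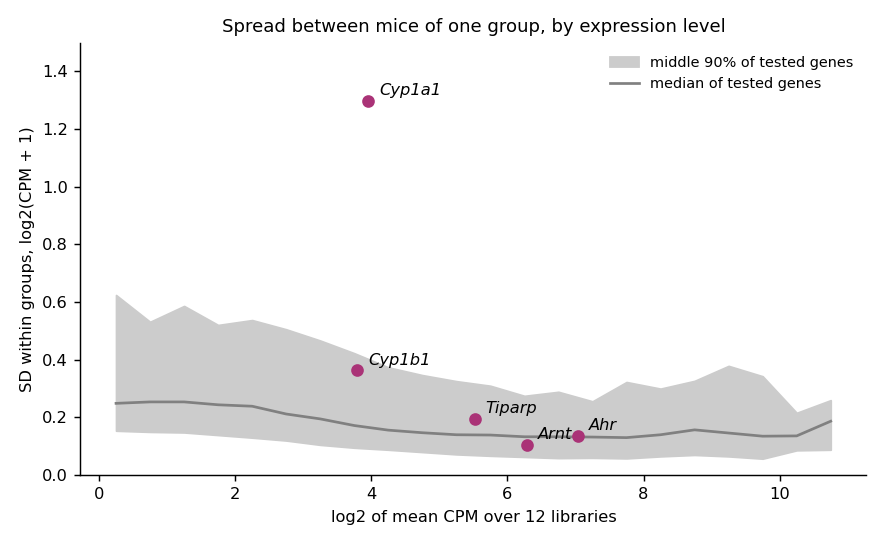
SD of log2(CPM + 1) within groups (vertical axis) against log2 of the mean CPM over 12 libraries (horizontal axis); the line is the median and the band the middle 90% of tested genes at each level, and points are the 5 genes. Cyp1a1, at 1.298, lies far above the band and Arnt, at 0.104, below the median line.

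Summed cell type markers differed in all 3 comparisons, also for 5 weeks against control, where Cyp1a1 did not differ beyond its spread. In that comparison the interstitial macrophage sums did not overlap, at 1064 to 1210 CPM at 5 weeks and 1315 to 1852 CPM in controls. Nor did the B cell sums, at 183 to 381 against 96 to 168 CPM. The NK cell sums, at 59.2 to 98.4 against 29.8 to 53.8 CPM, did not overlap either. Sums of the other lists overlapped there. For 2 weeks against control, the pericyte and smooth muscle sums did not overlap, at 1370.3 to 1590.3 against 1208.7 to 1350.9 CPM, with 8 of 9 markers higher. Nor did the interstitial macrophage sums, at 974.7 to 1117.7 against 1315.1 to 1851.6 CPM, with all 8 markers lower. All 7 ciliated cell markers were higher, but their sums overlapped, as did those of the other marker lists. From 2 to 5 weeks all 7 neutrophil markers tested were higher, with summed levels of 131 to 372 CPM at 5 weeks and 47.9 to 159 CPM at 2 weeks. All 7 B cell markers (183 to 381 against 107.0 to 231 CPM in sum), all 7 NK cell markers (59.2 to 98.4 against 28.7 to 71.5 CPM) and all 9 alveolar macrophage markers (755 to 957 against 429 to 896 CPM) were also higher, as were all 6 red cell markers. All 7 club and secretory cell markers were lower (20578 to 27937 against 22988 to 35378 CPM), as were all 7 cardiomyocyte markers. All 6 general capillary markers were lower too, and their sums did not overlap: 2478 to 2658 CPM at 5 weeks and 2706 to 2981 CPM at 2 weeks. Nor did those of the pericyte and smooth muscle markers, 6 of 9 lower, at 1071 to 1309 CPM at 5 weeks and 1370.3 to 1590.3 CPM at 2 weeks. Of 8 monocyte markers 6 were higher, 4 of them without overlap, beside 4.94% of all genes tested without overlap in either direction. The monocyte sums overlapped at 1499.5 to 1986 CPM at 5 weeks and 1738 to 1999 CPM at 2 weeks. Most of each sum was the single gene Ace, which averaged 1379 CPM at 5 weeks and 1457 CPM at 2 weeks, so the sum mainly follows Ace. Of 12 endothelial markers 10 were lower, and their sum ranged 1.27-fold over the 12 libraries, from 4378 to 5579 CPM. The club cell sum ranged 1.72-fold and the neutrophil sum 7.77-fold. Only Ly6g, of the neutrophil list, and Ucp1, of the adipocyte list, were at 0 in any library.

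Single libraries show both directions for the alveolar macrophage sums. The 2-week library with the highest Cyp1a1, replicate 4 at 75.7 CPM, had a neutrophil sum of 159 CPM, a B cell sum of 230.8 CPM and an alveolar macrophage sum of 896 CPM. The other 3 libraries at 2 weeks had 47.9 to 65.7, 107.0 to 118.7 and 429 to 485 CPM. Control replicate 3, with the highest Cyp1a1 of the controls, had the lowest alveolar macrophage sum of the controls, 462 CPM. The general capillary sums of 2-week replicate 4 and control replicate 3, 2981 and 2953 CPM, were the highest of the 12 libraries. Every library with Cyp1a1 at 13.5 CPM or more had a general capillary sum of at least 2706 CPM. Every library at 9.45 CPM or less had at most 2658 CPM. This split was picked after the values were seen. Among the libraries with less Cyp1a1 the order did not follow. The 5-week library with the lowest Cyp1a1, replicate 4 at 0.234 CPM, had a general capillary sum of 2519 CPM. Control replicates 1 and 2 had lower sums, 2302 and 2265 CPM, with Cyp1a1 at 1.57 and 3.35 CPM. Beyond these values, the part of cell composition in the Cyp1a1 differences was not tested.

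**Figure D5:**
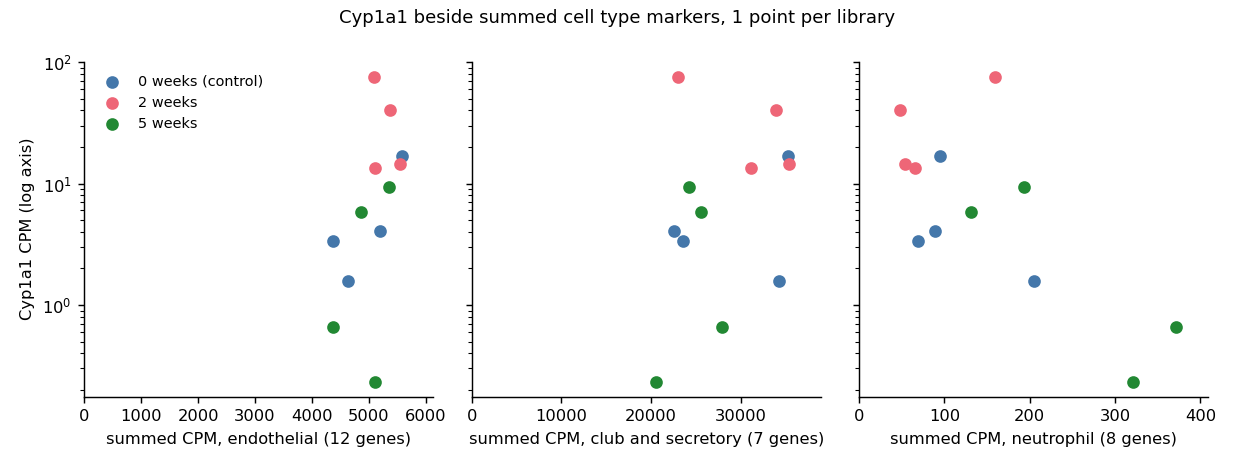
Cyp1a1 in CPM (vertical log axis) against the summed CPM of endothelial, club and secretory, and neutrophil markers (horizontal axes), 1 point per library, coloured by group. Cyp1a1 ranges from 0.234 to 75.7 CPM, endothelial sums range 1.27-fold and neutrophil sums 7.77-fold, and the 2-week library at 75.7 CPM has a neutrophil sum of 159 CPM.

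Cyp1b1, a related P450 gene, did not differ between groups beyond its spread. It (ENSMUSG00000024087, 17:80008966-80022490, minus strand) was at 16.7, 27.2, 12.6 and 9.62 CPM in controls, at 14.5, 13.2, 13.1 and 12.1 CPM at 2 weeks and at 13.3, 12.3, 10.1 and 12.4 CPM at 5 weeks. The treated groups lay inside the range of the controls. Control replicate 2, at 27.2 CPM, is the library with the adipocyte sum of 1872 CPM, and the part of those cells in its value was not tested. The log2 difference for 2 weeks against control was -0.21, and 0.05 without that library. For 5 weeks against control it was -0.34 ± 0.22 (SE; exact permutation p = 0.4; limma adjusted p = 0.679), and -0.08 without that library. For 5 against 2 weeks it was -0.13 (exact permutation p = 0.286; limma adjusted p = 0.887).

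Tiparp, whose protein ADP-ribosylates AhR and so limits its activity, had 3 groups that overlapped. It (ENSMUSG00000034640, 3:65435831-65462939, plus strand) was at 37.2, 51.7, 40.0 and 58.1 CPM in controls, at 40.2, 39.6, 42.0 and 48.0 CPM at 2 weeks and at 44.5, 52.6, 46.5 and 49.8 CPM at 5 weeks. Both treated groups again lay inside the range of the controls. The 2-week mean of 42.5 ± 3.83 CPM was the lowest of the 3, below 46.7 ± 9.82 CPM in controls and 48.4 ± 3.55 CPM at 5 weeks (SD, n = 4 each). The log2 difference was -0.12 for 2 weeks against control. It was 0.07 for 5 weeks against control (exact permutation p = 0.657; limma adjusted p = 0.876) and 0.18 ± 0.13 (SE) for 5 against 2 weeks (exact permutation p = 0.0857; limma adjusted p = 0.629).

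Side by side for 2 weeks against control, Ahr and Cyp1a1 had higher means and Tiparp a lower one. The signs for Arnt and Cyp1b1 turned with the scaling or with 1 library. Tiparp kept its sign, but its log2 difference ranged from -0.22 to -0.01 over the 20 alternative fits described below. Ahrr was too low to place. Across the 12 libraries, the 15 pairs of the 6 genes had Pearson correlations of log2 levels between -0.42 and 0.57, given as a description over libraries that share groups. Cyp1a1 and Ahr correlated at r = 0.41 and rho = 0.47, and at r = 0.04 without the 2 libraries whose Ahr was farthest from the median. With the group means removed it was r = -0.04.

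Genes whose levels ran most like each of these were named from 13706 protein-coding genes by Pearson correlation of log2 levels over the 12 libraries. Closest to Cyp1a1 were Trip4 (r = 0.884), Spock2 (0.866) and Sec16b (0.85), which moved far less: Spock2, a proteoglycan gene, averaged 572 CPM in controls, 650 at 2 weeks and 519 at 5 weeks. Closest to Ahr were Egr2 (0.893), Prickle3 (0.879) and Cyyr1 (0.861). Egr2, an immediate early transcription factor, averaged 7.95, 14.8 and 11.8 CPM in the 3 groups. Closest to Arnt were Tet3 (0.949), Mical3 (0.937) and Tnik (0.936), and closest to Tiparp were Usp38 (0.931), Scyl3 (0.929) and Atad2 (0.928). Closest to Cyp1b1 were Slc1a5 (0.957), Slc36a2 (0.934) and Acss2 (0.927), and without control replicates 2 and 4 these were 0.769, 0.619 and 0.656. Without the 2 libraries farthest from each gene's median, the values were 0.758 to 0.884 for Cyp1a1 and 0.767 to 0.831 for Ahr. They were 0.701 to 0.833 for Arnt and 0.872 to 0.91 for Tiparp. With group means removed, Trip4, Spock2 and Sec16b correlated with Cyp1a1 at 0.715, 0.722 and 0.657. The libraries share depth, handling and cell composition, so likeness says nothing of shared control.

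Further AhR-responsive genes had mixed signs. Of 16 further genes of the AhR battery, 15 are in the table and 11 passed the filter. Like the lists that follow, it was chosen with earlier results of these libraries known. Limma adjusted p values of list genes for 2 weeks against control therefore only place them among all genes and are no independent test. For 2 weeks against control 6 were higher and 5 lower, with a median log2 difference of 0.051 beside 0.019 over all genes, and none was called, as for 0% of all genes tested in each comparison. For 5 weeks against control it was 4 and 7, with a median of -0.087 beside 0.018, and for 5 against 2 weeks 5 and 6, with -0.064 beside 0.001, again with none called. Nqo1, a quinone reductase that NRF2 also controls, was at 9.24 ± 2.21 CPM in controls, 12.6 ± 2.6 at 2 weeks and 9.17 ± 1.37 at 5 weeks (SD, n = 4 each). Its log2 difference was 0.42 ± 0.18 (SE) for 2 weeks against control (limma adjusted p = 0.495) and -0.41 for 5 against 2 weeks (limma adjusted p = 0.421).

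The glucuronosyltransferase Ugt1a7c took the opposite course, with 9.28 ± 2.18, 6.12 ± 1.74 and 10.1 ± 1.76 CPM (SD, n = 4 each). Its log2 difference was -0.54 ± 0.19 (SE) for 2 weeks against control (limma adjusted p = 0.437) and 0.66 for 5 against 2 weeks (limma adjusted p = 0.288). Ugt1a transcripts share their downstream exons, so the split of reads between them is uncertain. The aldehyde dehydrogenase Aldh3a1 averaged 16.1, 19.9 and 14.4 CPM, and NRF2 itself (Nfe2l2) averaged 218, 191 and 198 CPM. For 5 weeks against control the smallest p values belonged to Xdh (log2 difference -0.26), Nfe2l2 (-0.13) and Selenbp1 (-0.12), with limma adjusted p from 0.646 to 0.737. Xdh, xanthine dehydrogenase, was the 1 gene of the 11 tested whose 2-week libraries did not overlap the controls, beside 5.32% of all genes tested. It was at 240.2 to 290.0 CPM at 2 weeks, below the controls at 321.3 to 346.7 CPM, with a log2 difference of -0.31 ± 0.15 (SE; limma adjusted p = 0.545). At 5 weeks Xdh overlapped the controls at 191.3 to 359.6 CPM. Cyp1a2, the liver relative of Cyp1a1, was below the filter. It averaged 0.104 ± 0.184 CPM in controls (SD, n = 4), which ranged from 0 reads to 0.379 CPM. It averaged 0.0159 CPM at 2 weeks and was at 0 reads in all 4 libraries at 5 weeks, too low to compare the groups.

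Chaperones and coregulators of AhR were followed as well, with 0% of all genes called. The chaperone Hsp90ab1 averaged 1188, 999.7 and 1067 CPM and Hsp90aa1 332, 281 and 302 CPM. Of the 6 coregulators, none was higher and all 6 were lower for 2 weeks (median -0.142) and for 5 weeks against control (-0.122), and 4 were higher and 2 lower for 5 against 2 weeks (0.039). Both comparisons against control share the same 4 libraries. None of these passed the test, and Ncoa3, a steroid receptor coactivator, averaged 102.7, 87.4 and 95.1 CPM and the corepressor Nrip1 49.8, 43.1 and 44.6 CPM.

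Among the relatives of AhR in the basic helix-loop-helix PAS family, 7 of 12 genes in the table passed the filter. Of these, 2 were higher and 5 lower for 2 weeks (median -0.034) and for 5 weeks against control (-0.129), and 4 and 3 for 5 against 2 weeks (0.046). Hif3a, a hypoxia-inducible factor subunit that can act as an inhibitor, was at 5.51 to 7.50 CPM in controls, 1.46 to 3.64 CPM at 2 weeks and 1.87 to 4.34 CPM at 5 weeks. Both treated groups lay wholly below the controls, the 1 gene of the 7 without overlap in either comparison. Over all genes tested the share without overlap was 5.32% for 2 weeks and 5.01% for 5 weeks against control. The log2 difference was -1.08 ± 0.22 (SE) for 2 weeks (limma adjusted p = 0.138) and -0.95 for 5 weeks against control (limma adjusted p = 0.328). Epas1, the hypoxia-inducible factor subunit of endothelium that also pairs with ARNT, averaged 3295 ± 345, 3213 ± 260 and 2646 ± 411 CPM (SD, n = 4 each). Its log2 difference for 5 weeks against control was -0.33 ± 0.13 (SE; limma adjusted p = 0.551).

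Targets of the hypoxia-inducible factors, which also need ARNT, had mixed signs. Of 12 genes tested, 7 were higher and 5 lower for 2 weeks against control (median 0.02), and 4 and 8 in each of the other comparisons (medians -0.065 and -0.096). Ndrg1 was at 57.3 ± 2.56 CPM in controls, 42.8 ± 2.54 at 2 weeks and 49.2 ± 7.01 at 5 weeks (SD, n = 4 each). Its 2-week libraries lay below all controls, with a log2 difference of -0.41 ± 0.09 (SE; limma adjusted p = 0.197). It was the 1 gene of the 12 without overlap in this comparison, beside 5.32% of all genes tested.

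Enzymes that make or remove tryptophan-derived AhR ligands were mostly higher at 5 weeks by sign. Of 9 genes tested, 6 were higher and 3 lower for 2 weeks against control (median 0.022), 8 and 1 for 5 weeks against control (0.212), and 7 and 2 for 5 against 2 weeks (0.051). Haao averaged 2.73, 3.05 and 4.10 CPM, Kmo 5.38, 5.09 and 7.03 CPM, and Kynu, the kynureninase, 2.02, 1.61 and 2.65 CPM. The lowest limma adjusted p for 5 weeks against control was 0.614, that of Haao, and no gene of the list was called, beside 0% of all genes. Kyat3, a kynurenine aminotransferase, averaged 5.99, 7.68 and 6.01 CPM, with a log2 difference of 0.33 ± 0.15 (SE) for 2 weeks against control (limma adjusted p = 0.541).

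A further 3 lists respond to daily time, handling or stress. Immediate early genes were higher for 15 of 18 in both treated groups against control (medians 0.498 and 0.488), comparisons that share their controls. For 5 against 2 weeks 5 of 18 were higher (-0.114). At 2 weeks 6 of them lay above and 1 below all controls, beside 5.32% of all genes tested without overlap. At 5 weeks 3 lay above and 1 below all controls, beside 5.01% of all genes tested. Circadian clock genes were higher for 5 and lower for 9 of 14 at 2 weeks against control (-0.077), 2 and 12 at 5 weeks against control (-0.185), and 5 and 9 for 5 against 2 weeks (-0.069). Glucocorticoid response genes were higher for 3 and lower for 9 of 12 at 2 weeks (-0.299), 4 and 8 at 5 weeks against control (-0.248), and 9 and 3 for 5 against 2 weeks (0.064). Of the clock genes 1 lay below all controls at 2 weeks and 2 at 5 weeks, and of the glucocorticoid genes 2 at each time. No gene of these 3 lists was called, and the part of these lists in the Cyp1a1 differences was not tested.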

How the data were processed

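Whole-lung RNA-seq of 12 mice was used as deposited: the authors gave 1 table of CPM per gene, with 0.0001 added to every cell. Per the submitters' processing notes, TopHat2, Partek and mm10 were used; what versions, counting rule and strand setting they had is not given in the sources used here. Gene positions in the table differ from that build and are printed only as the table gives them, and a single-cell experiment in the design text was not analysed here. Depth was read from the steps of low values, and only 87.2 to 87.9% of them came out whole within 0.1 read, so no count model was used.

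The 15562 of 23127 genes whose mean reached 1 CPM were fitted on log2(CPM + 1), a scale that understates changes of low genes, with limma 3.58.1 (trend) in R 4.3.3, all 3 groups sharing 1 estimate of spread, and adjusted by Benjamini-Hochberg over all genes at 0.05. The script was tested on simulated data. Single genes were also tested by exact two-sided permutation, 4 against 4, in SciPy 1.17.1. Exon lengths came from GENCODE and promoters from RefSeq. The 6 genes and all lists were chosen with earlier results of these data known. Of each list, the 3 genes with the smallest p in a comparison could be named, and for each gene the 3 most correlated genes; Cyp1a2 and single genes given in a second comparison were named after their values were seen. Labels give mouse numbers but no litter, cage or batch, so p-values measure the spread between these mice. Some list members are not reported here.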

Additional observations from a re-analysis of the deposited data

How the results depend on the processing

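Each of the 5 genes that passed the filter was refitted under 20 alternatives, and Ahrr only in the fit without a filter; for 5 weeks against control and 5 against 2 weeks limma called none of them (pseudocounts 0.1 and 5, no filter, 2 other scalings, 2 groups at a time, library weights, without the 3 libraries that stand apart, and without each library in turn). Cyp1a1 kept its direction in 2 comparisons: 1.73 to 2.91 for 2 weeks against control and -3.84 to -2.04 for 5 against 2 weeks, the extremes of the latter with pseudocounts 0.1 and 5 (limma adjusted p 0.0619 with library weights to 0.665). Ahr for 2 weeks against control ranged from 0.18 to 0.29. The sign turned for small differences: Arnt for 2 weeks against control was -0.01 with median-of-ratios scaling, and -0.03 to 0.03 leaving out 1 library. Cyp1b1 for 2 weeks against control was 0.06 without the 3 libraries that stand apart, and -0.42 to 0.05 leaving out 1. Cyp1a1 for 5 weeks against control was 0.01 with library weights. Leaving out 1 library, Tiparp for 5 weeks against control ranged from -0.03 to 0.18 and Ahr from -0.01 to 0.11. The cause was not tested.

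Over all genes, limma with library weights called 18 genes for 2 weeks against control and 881 for 5 against 2 weeks (579 higher, 302 lower), beside 0 without weights. Leaving out 1 library gave 0 to 24 for 2 weeks against control (24 without 5-week replicate 3, 1 without control replicate 1), 0 to 1 for 5 weeks against control (1 without control replicate 1) and 0 to 386 for 5 against 2 weeks (386 without 2-week replicate 4). Depth limits Ahrr, with at most 10 reads per library. No paired analysis was possible because the mouse numbers differ between groups and the replicate numbers only name mice.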
